A study of Mus musculus with 16 samples.

Results

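The genes described here are 9 mouse transcripts that glucocorticoid hormones are known to induce, 2 of them metallothioneins: Mt1, Mt2, Fkbp5, Tsc22d3, Sgk1, Zbtb16, Klf9, Cebpb and Cebpd. They were found by gene symbol among probe sets annotated with 1 symbol, and the brightest probe set over all arrays stood for each gene. Of the 9 genes 8 had such a probe set, among 17097 genes in all, and Mt2 was not analysed here. Quadriceps RNA of 16 mice was measured on Affymetrix arrays, 1 mouse per array, to compare muscle with and without the mitochondrial fusion protein mitofusin 2 (Mfn2) at 2 ages. The 4 groups held 4 mice each: Mfn2 KO mice of 22 months (old KO), control mice of 22 months (old control), Mfn2 KO mice of 6 months (young KO) and control mice of 6 months (young control). All were fed standard chow, and the muscle was frozen on excision. The labels give neither strain nor sex, nor the promoter or the cells of the Mfn2 deletion, nor the hour of day at which muscle was taken.

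Glucocorticoids bind the glucocorticoid receptor, which moves to the nucleus and binds inverted-repeat elements near its target genes. In skeletal muscle the hormone is known for raising genes of fuel switching and protein breakdown, and its level in blood follows a daily rhythm and rises with stress. Metallothioneins are small cysteine-rich proteins that bind zinc and copper. They respond to metals through the factor Mtf1, which binds metal response elements, and to glucocorticoids, while Cebpb and Cebpd also respond to interleukin 6.

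The promoter windows of Mt1 and Sgk1 are shown because they alone, among the windows found for these genes, held a receptor-type inverted repeat. RefSeq windows (GRCm38.p6, 250 bases before the first transcribed base to 50 from it) were found for 6 of the 8 genes, 13 windows in all, and none for Zbtb16 or Cebpd. Capitals mark matches to GNACANNNTGTNC, a form of the glucocorticoid response element, and to TGCACNC and TGCGCNC, the metal response element core, each searched on both strands. No marked stretches overlap. The stretches printed are chr8:94178839-94179118 for Mt1 (280 bases) and chr10:21993640-21993889 for Sgk1 (250 bases), both on the plus strand.
Mt1: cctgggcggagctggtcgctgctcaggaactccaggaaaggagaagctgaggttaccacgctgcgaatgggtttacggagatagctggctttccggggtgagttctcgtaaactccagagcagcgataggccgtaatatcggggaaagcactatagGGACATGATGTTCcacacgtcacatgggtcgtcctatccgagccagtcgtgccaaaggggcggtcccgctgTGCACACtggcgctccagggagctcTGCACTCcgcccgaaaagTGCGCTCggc
Sgk1: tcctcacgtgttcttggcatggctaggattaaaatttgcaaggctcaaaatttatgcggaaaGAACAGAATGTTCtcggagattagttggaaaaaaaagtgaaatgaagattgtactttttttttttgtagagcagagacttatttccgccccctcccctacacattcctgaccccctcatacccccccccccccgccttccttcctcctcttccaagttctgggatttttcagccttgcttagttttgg

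Positions count from the first transcribed base of each window as 1, which for Mt1 is chr8:94179089. The annotated span of the Mt1 gene starts earlier, at chr8:94178883. The Mt1 repeat GGACATGATGTTC spans positions -94 to -82, and the metal core starts at -23 as TGCACAC, at 3 as TGCACTC and at 21 as TGCGCTC. The Sgk1 repeat GAACAGAATGTTC spans -188 to -176, and another Sgk1 window, not printed, held the metal core on the minus strand at positions 12 to 18. Of all 32851 windows 0.475% held the receptor element, 12.6% the metal core TGCACNC, 15.4% TGCGCNC and 25.7% either core. A match is a description of letters and not of a bound site.

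The signals are log2 values of the deposited table, and differences are given on that scale. Array medians lay between 4.58 and 4.65. Mfn2 lay between 6.32 and 8.32 in old KO muscle (median 8.16) and between 8.34 and 9.18 in old control muscle (median 8.60). It lay between 8.38 and 8.54 in young KO muscle (median 8.45) and between 8.03 and 9.45 in young control muscle (median 8.85). One old KO array was far below the rest, while KO and control values overlapped in young muscle, and it is not known here whether the probe set covers the deletion. The 10 muscle fibre markers were bright in every array, with array means between 11.79 and 12.05. Arrays with the same replicate number resembled each other across groups, and the SD over all probe sets was lowest in the 4 arrays of number 3 (1.70 to 1.74, against 1.79 to 1.94 in the others). The labels do not say what the number marks, so mice of the same number are not known to be pairs.

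By their brightest probe sets the 8 measured genes were all higher in old than in young muscle when both genotypes were averaged. None of these differences passed the test across all genes. Cebpd had the greatest difference at 0.88 (1.84-fold), followed by Fkbp5 at 0.65, Mt1 at 0.64, Tsc22d3 at 0.34, Zbtb16 at 0.34, Cebpb at 0.29, Sgk1 at 0.20 and Klf9 at 0.11. The median of the 8 was 0.34, against -0.009 over all genes, of which 45.5% were higher in old muscle. At an adjusted p under 0.05 (limma, Benjamini-Hochberg across the 17097 genes) 0 of the 8 were called, against 0.0585% of all genes. In the same fit 2 of the 8 had an unadjusted p under 0.05, as 3.52% of all genes did. With the replicate number as a block in the fit 0 of the 8 were called, against 0.579% of all genes, and 6 of the 8 had an unadjusted p under 0.05, as 11.7% of all genes did. The smallest limma adjusted p of the 8 was that of Cebpd, 0.808 without the block and 0.0970 with it. All 8 were also higher in old muscle within KO mice and within control mice, 2 comparisons that share no array. The 8 genes varied together over the mice, so the count of 8 does not stand for 8 separate observations. They were also chosen with earlier results of these data known.

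The count of 8 of 8 higher in old muscle was the same when old control replicate 1, young control replicate 3 or the 4 arrays of number 3 were left out, with medians of 0.28, 0.25 and 0.26. Family is a label whose letters A and B hold old mice only and C and D young mice only. A class of other mice holds both ages. Family could be fitted together with the replicate block, but old and young mice are then linked only through that class. In that fit 5 of the 8 were higher in old muscle, with a median of 0.23. Mt1, Klf9 and Cebpb were lower, at -0.06, -0.07 and -0.03. In bulk muscle, fewer cells of a type and less RNA per cell cannot be told apart.

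**Figure D1:**
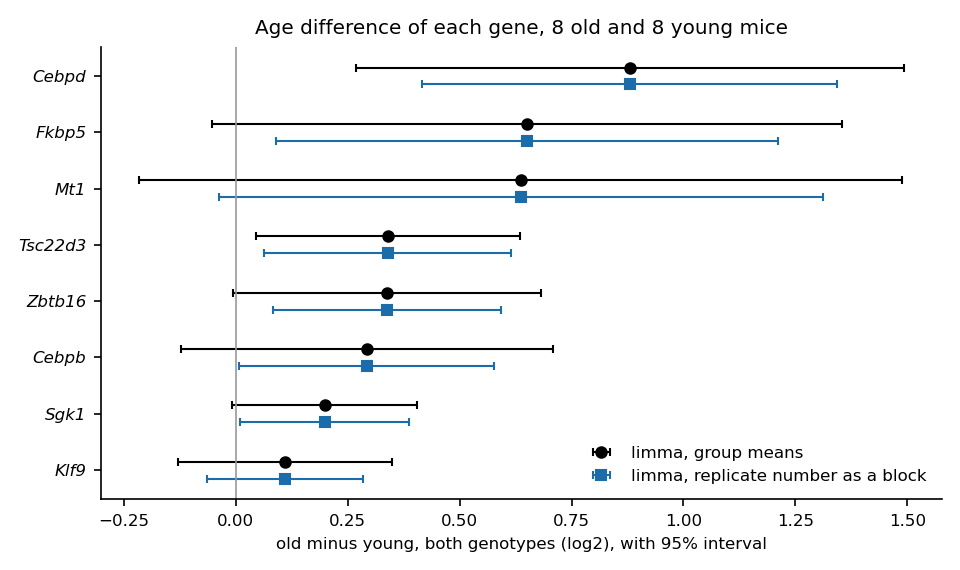
Old minus young difference (log2) of each gene, averaged over both genotypes, with 95% intervals from limma without (black circles) and with (blue squares) the replicate number as a block. All 8 points lie above 0; the interval of Cebpd lies above 0 in both fits (0.27 to 1.49 and 0.42 to 1.34), and that of Mt1 spans 0 in both.

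Mt1, a metal-binding metallothionein, had the widest spread of the 8. Its signals in replicates 1 to 4 were 9.20, 8.77, 8.49 and 9.64 in old KO muscle and 9.95, 8.63, 7.82 and 7.76 in old control muscle. In young KO muscle they were 8.53, 8.39, 7.44 and 7.74, and in young control muscle 8.05, 8.61, 6.64 and 9.77. The highest of the 16 was old control replicate 1 and the lowest young control replicate 3, a 9.93-fold range. The 4 groups overlapped, and 3 of the 4 old KO values lay above all 4 young KO values. Old minus young was 1.0 in KO mice (SE 0.57, 95% interval -0.20 to 2.20, higher in 4 of 4 replicate numbers) and 0.27 in control mice (SE 0.57, interval -0.93 to 1.48, higher in 3 of 4). The interaction, the age difference in KO minus that in control mice, was 0.73 (limma SE 0.80, interval -0.98 to 2.43), and the test did not distinguish the age differences of KO and control mice. The probe set is of the kind that can share probes with related transcripts, and a part of other metallothionein RNAs in its signal was not tested. A second Mt1 probe set, at a mean signal of 5.19, also lay higher in old than in young muscle, by 0.30. The Mt1 age difference over both genotypes was 0.36 when young control replicate 3 was left out and 0.40 when old control replicate 1 was, against 0.64 with all arrays. The interaction was 0.23 without young control replicate 4 and 1.27 without young control replicate 3.

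Fkbp5 encodes a co-chaperone that binds the receptor complex with Hsp90 and lowers its affinity for hormone. Its signals were 8.49, 8.22, 7.43 and 8.90 in old KO muscle and 9.46, 7.74, 8.23 and 8.45 in old control muscle. They were 8.10, 7.76, 6.77 and 7.49 in young KO muscle and 7.11, 8.37, 7.06 and 9.06 in young control muscle. The groups overlapped, and in young control muscle replicates 2 and 4 were high and replicates 1 and 3 low (SD 0.98, n = 4). Old minus young over both genotypes was 0.65 (SE 0.33, 95% interval -0.05 to 1.35) by limma, with an adjusted p of 0.340 in the fit with the replicate block. Old exceeded young in 4 of 4 replicate numbers in KO mice but in 2 of 4 in control mice. In control mice the differences of numbers 1 to 4 were 2.35, -0.63, 1.17 and -0.61. Over both genotypes the mean difference was similar in the arrays of numbers 1 and 2 (0.64) and of numbers 3 and 4 (0.66). A second probe set, whose deviations from the group means followed the first with r = 0.988 over 16 arrays, gave 0.48. The dimmest Fkbp5 probe set, at a mean signal of 3.37, gave -0.02.

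Tsc22d3, or Gilz, encodes a leucine zipper protein that mediates part of the hormone's anti-inflammatory action. Its signals were 8.74, 9.36, 9.07 and 9.50 in old KO muscle and 9.78, 9.12, 9.02 and 9.19 in old control muscle. In young KO muscle they were 8.48, 8.999, 8.56 and 8.87, and in young control muscle 9.22, 8.75, 8.87 and 9.30. In KO mice the old value exceeded the young one in each of the 4 replicate numbers, while old KO replicate 1 lay among the young values. Old minus young was 0.44 (SE 0.20) in KO mice and 0.34 (SE 0.14, 95% interval 0.04 to 0.63) over both genotypes, with a limma adjusted p of 0.304 in the fit with the replicate block. A second probe set, at a mean signal of 8.70 and with r = 0.926 to the first, gave 0.32 over both genotypes and 0.25 in KO mice, and another, dimmer one 0.11 over both genotypes.

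Sgk1 encodes a serum- and glucocorticoid-induced kinase that regulates ion channels and transporters. Its signals were 9.75, 9.92, 10.02 and 9.81 in old KO muscle and 10.39, 10.04, 9.73 and 10.10 in old control muscle. They were 9.66, 10.05, 9.69 and 9.71 in young KO muscle and 10.06, 9.75, 9.50 and 9.73 in young control muscle. The 16 arrays lay within 0.89 log2 units, a 1.86-fold range, and the groups overlapped. In control mice old minus young was 0.30 (SE 0.14, 95% interval 0.01 to 0.59, higher in 4 of 4 replicate numbers), and 0.19 without old control replicate 1. In KO mice it was 0.09 (SE 0.14), and the interaction was -0.21 (limma SE 0.19, interval -0.62 to 0.20).

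Zbtb16, the transcriptional repressor Plzf, had signals of 9.96, 9.88, 9.67 and 9.997 in old KO muscle and 10.23, 9.76, 9.95 and 10.20 in old control muscle. Its signals were 9.89, 9.58, 9.38 and 9.89 in young KO muscle and 9.67, 10.03, 8.64 and 9.87 in young control muscle. Young control replicate 3 was the lowest array, and the other values overlapped between the groups. Old minus young was 0.48 (SE 0.23) in control mice and 0.34 (SE 0.16, 95% interval -0.01 to 0.68) over both genotypes. Without young control replicate 3 these were 0.18 and 0.19. Within numbers 1 and 2 the difference over both genotypes was 0.17, and within numbers 3 and 4 it was 0.51. A second Zbtb16 probe set, at a mean signal of 7.08, gave 0.27 over both genotypes.

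Klf9, a Krüppel-like transcription factor that the receptor induces directly, had the smallest age difference of the 8 by the brightest probe sets. Its signals were 9.87, 9.95, 9.88 and 10.08 in old KO muscle and 10.26, 9.72, 9.76 and 9.82 in old control muscle. They were 9.89, 9.77, 9.47 and 10.01 in young KO muscle and 9.99, 9.96, 9.31 and 10.04 in young control muscle. The 2 lowest arrays were the young ones of number 3, and the other 14 lay between 9.72 and 10.26. Old minus young over both genotypes was 0.11 (limma SE 0.11, 95% interval -0.13 to 0.35), and 0.03 without young control replicate 3. The other Klf9 probe sets, from bright to dim, gave 0.22, 0.07, -0.14 and 0.13 over both genotypes. That at a mean signal of 5.24 was opposite in sign to the brightest.

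Cebpb and Cebpd are basic leucine zipper transcription factors that act in the acute phase response and respond to glucocorticoids and cytokines. Cebpb had signals of 7.60, 7.72, 7.43 and 7.73 in old KO muscle and 8.09, 7.78, 7.22 and 7.17 in old control muscle. It had 7.51, 7.53, 6.82 and 7.09 in young KO muscle and 7.66, 7.43, 6.48 and 7.87 in young control muscle. The old KO values were close together (SD 0.14), and the values spread more in old control (SD 0.45), young KO (SD 0.35) and young control muscle (SD 0.61, n = 4 each). Old minus young was 0.38 (SE 0.28) in KO mice and 0.29 (SE 0.20, 95% interval -0.12 to 0.71) over both genotypes. Without young control replicate 3 the difference over both genotypes was 0.15, and in KO mice it was 0.24 without young KO replicate 3. A dimmer Cebpb probe set, at a mean signal of 5.81, differed by -0.04 over both genotypes, opposite in sign to the brightest one.

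Cebpd had signals of 7.10, 7.10, 7.36 and 7.40 in old KO muscle and 7.79, 6.82, 6.75 and 6.37 in old control muscle. In young KO muscle they were 6.80, 6.77, 5.38 and 5.55, and in young control muscle 6.85, 6.82, 5.14 and 6.35. All 4 old KO values lay above all 4 young KO values, the 1 gene of the 8 with such a separation, against 0.924% of all genes. None of the 8 separated downwards in KO mice, against 0.871% of all genes, and in control mice none separated upwards or downwards, against 0.749% and 0.772%. The old KO values were also closer together (SD 0.16, n = 4) than those of old control (SD 0.61), young KO (SD 0.77) and young control muscle (SD 0.80, n = 4 each).

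Old minus young for Cebpd was 1.12 (2.17-fold, SE 0.41, 95% interval 0.25 to 1.98) in KO mice and 0.64 (SE 0.41, interval -0.22 to 1.51) in control mice. Leaving out young control replicate 3 gave 0.26 in control mice, and leaving out old control replicate 1 gave 0.355. The interaction was 0.48 (limma SE 0.58, interval -0.75 to 1.70), and the test did not distinguish the genotypes. Over both genotypes the difference was 0.88 (SE 0.29, interval 0.27 to 1.49). The old array was higher in 7 of 8 comparisons of arrays with the same genotype and replicate number. It was 0.39 within the arrays of numbers 1 and 2 and 1.37 within those of numbers 3 and 4. Young mice of numbers 3 and 4 carried the low values (mean 5.60, SD 0.53, n = 4), against 6.81 (SD 0.04, n = 4) for numbers 1 and 2. In the fit with the replicate block the limma adjusted p was 0.0970 with all arrays. It was 0.0431 without old KO replicate 1, at a difference of 1.02 (SE 0.20). That was the only block fit with 1 array left out that called any of the 8 genes. It was chosen after seeing the data, and 89 of all 17097 genes were called in it.

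**Figure D2:**
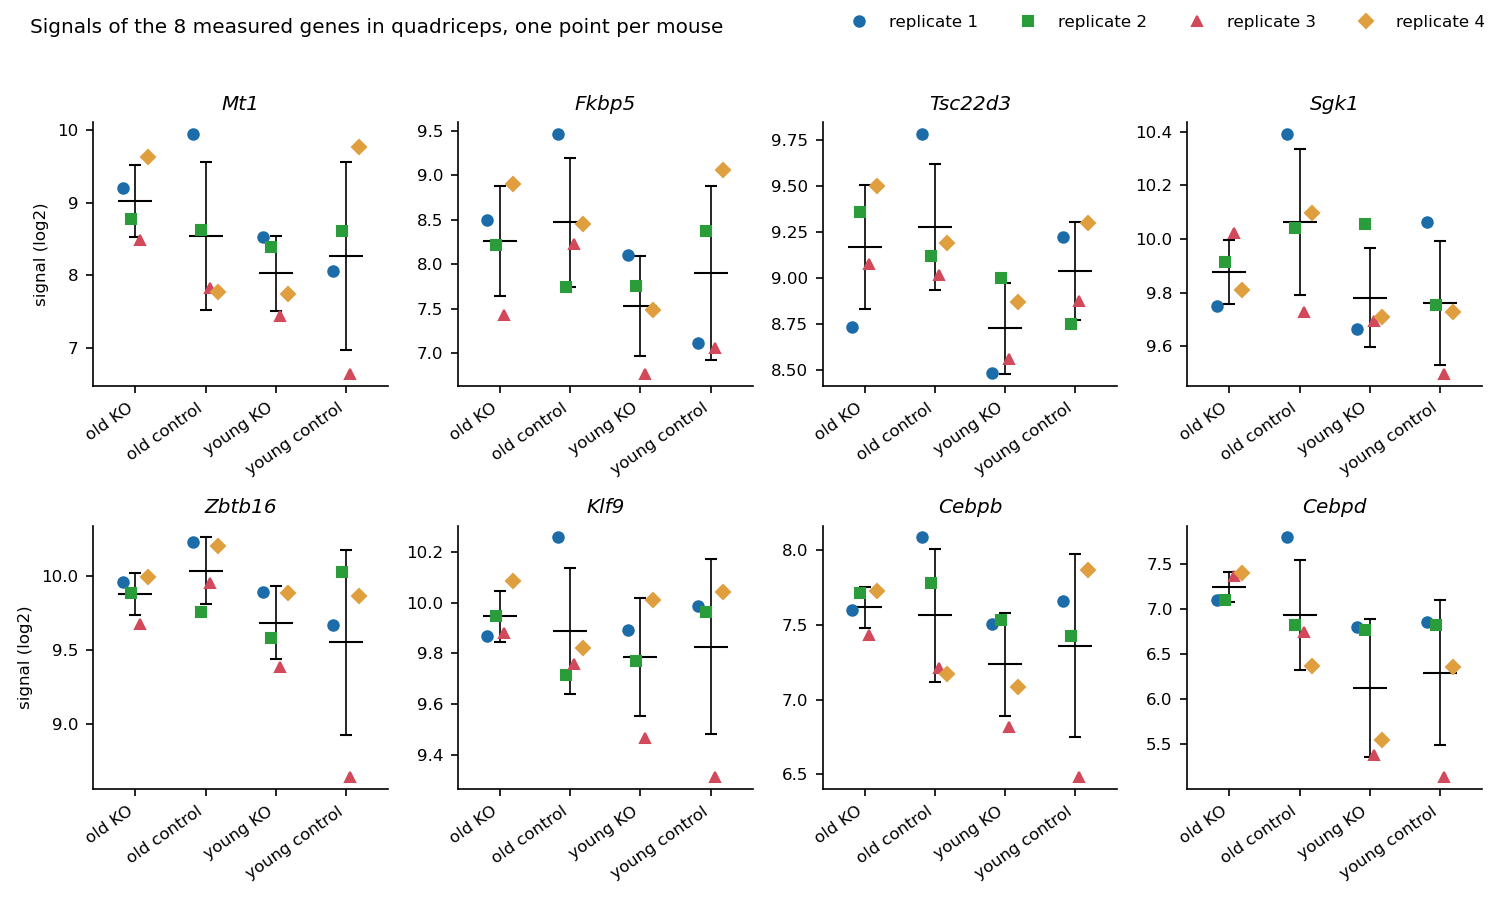
Signals (log2) of the 8 genes, 1 panel per gene, with 1 point per mouse shaped and coloured by replicate number and black bars for the group mean ± SD (4 mice each). Old control replicate 1 is the highest of the 16 arrays in every panel, and the 4 old KO points of Cebpd lie above the 4 young KO points.

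Within KO mice 0 of the 8 genes passed the test for age, against 0.0175% of all genes, and 2 had an unadjusted p under 0.05 by limma, as 2.59% of all genes did. With the replicate block 0 of the 8 passed, against 0.0234% of all genes, and 3 had an unadjusted p under 0.05, as 10.2% of all genes did. Within control mice 0 of the 8 passed, against 0% of all genes, and with the block 0 of the 8 passed, against 0.0468%. There 1 of the 8 had an unadjusted p under 0.05 by limma, as 2.12% of all genes did, and 2 with the block, as 9.64% did.

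Mfn2 genotype was compared at each age and over both ages. In old mice 4 of the 8 genes were higher in KO muscle and in young mice 2 of the 8, with medians of -0.03 and -0.15, against -0.004 and -0.006 over all genes. By limma 0 of the 8 passed in either comparison, over both ages or in the interaction, with or without the replicate block, and 0 had an unadjusted p under 0.05; 0% of all genes were called in each. The 95% intervals were wide for the variable genes. KO minus control in old mice was 0.48 (interval -0.72 to 1.69) for Mt1, and -0.21 by the second Mt1 probe set, the opposite sign. Leaving out 1 old control array moved the Mt1 value, to 0.23 without replicate 4, 0.24 without replicate 3 and 0.95 without replicate 1. For Sgk1 it was -0.19 (interval -0.48 to 0.10), and -0.08 without old control replicate 1. In young mice it was -0.37 (interval -1.36 to 0.63) for Fkbp5, and 0.02 without young control replicate 4. For Tsc22d3 it was -0.31 (interval -0.72 to 0.11) in young mice, and 0.03 by the second Tsc22d3 probe set. Over both ages Tsc22d3 differed by -0.21 (interval -0.50 to 0.09), or by -0.04 by that probe set, and Klf9 by 0.01 (interval -0.23 to 0.25).

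The SD within groups was 0.90 for Mt1, 0.74 for Fkbp5 and 0.64 for Cebpd, higher than in 99.6%, 99.1% and 98.0% of all genes, whose median was 0.23. Cebpb stood at the percentile 87.3, Zbtb16 at 79.3, Tsc22d3 at 68.5, Klf9 at 55.9 and Sgk1 at 45.5, so that the last lay below the median of all genes. With the mean of each replicate number removed as well, these 3 genes exceeded 99.7%, 99.6% and 99.1% of all genes. In that measure Cebpb stood at 96.3, Tsc22d3 at 96.1, Zbtb16 at 95.1, Sgk1 at 86.9 and Klf9 at 82.2.

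Single mice stood high or low for many of the genes at once. Old control replicate 1 had the highest signal of the 16 arrays for all 8 genes, an array that was the highest for 6.66% of all genes. Young control replicate 3 had the lowest for 6 of the 8, an array that was the lowest for 12.0% of all genes. Within the other groups, old KO replicate 4 was the highest for 7 of the 8 and young KO replicate 3 the lowest for 6 of the 8. These counts within a group have no share over all genes beside them, so whether they are particular to the 8 was not tested.

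**Figure D3:**
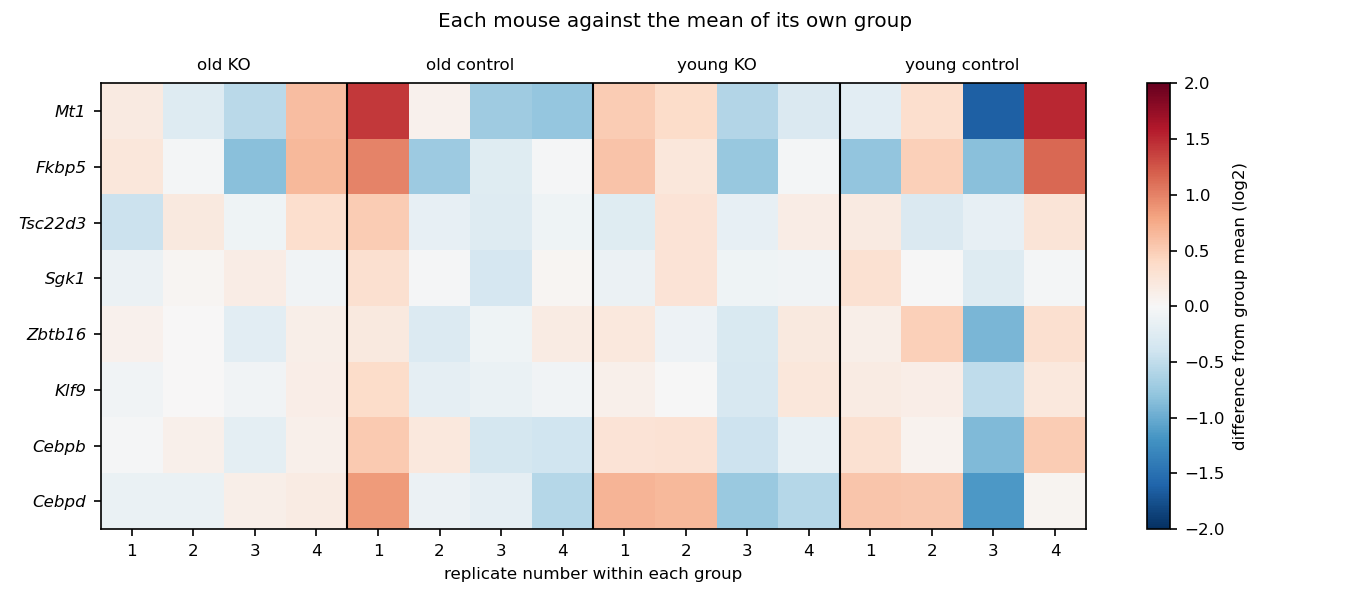
Each mouse's signal minus the mean of its own group (log2), for the 8 genes down the page and the 16 arrays across, with red above and blue below the group mean. Old control replicate 1 is red and young control replicate 3 blue for all 8 genes.

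Over the 16 mice, with group means removed, the 8 genes were compared in 28 pairs. Pearson's r was above 0 in 28 of 28 pairs (0.126 to 0.905, median 0.627), and Spearman's rho was too (median 0.578). By a permutation test within groups with 100000 shuffles, two-sided and Benjamini-Hochberg adjusted over the 28 pairs, 9 pairs passed by r and 6 by rho. The shuffles did not keep arrays of the same replicate number together, though such arrays resembled each other over all genes. How often pairs of other genes lie above 0 or pass was not tested. With the means of the replicate numbers removed too, 26 of 28 pairs stayed above 0 (median 0.462) and 0 passed, 8 having an unadjusted permutation p under 0.05. The median r was 0.727 within the 8 arrays of numbers 1 and 2 and 0.870 within the 8 of numbers 3 and 4, where 26 and 28 pairs were above 0. Each r within numbers 1 and 2 or 3 and 4 rests on 1 difference per group, between arrays of 2 numbers. These r values therefore cannot be told apart from a shared difference between the numbers. Without old control replicate 1 the median was 0.530, without young control replicate 3 it was 0.526, and without the 4 arrays of number 3 it was 0.390, with 27, 26 and 23 pairs above 0.

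The closest pair was Mt1 with Cebpb (r = 0.905, rho = 0.871, adjusted permutation p = 0.00663 and 0.00924). Without the 2 arrays farthest from the median of Mt1 its r was 0.855, and with number means removed 0.870 (adjusted permutation p = 0.106). The r was 0.986 within the arrays of numbers 3 and 4 and 0.359 within those of numbers 1 and 2, each from 1 difference per group. Mt1 with Fkbp5 had r = 0.834 (rho = 0.826, adjusted permutation p = 0.00663 and 0.00924), 0.771 without the 2 farthest arrays and 0.959 and 0.938 within numbers 1 and 2 and numbers 3 and 4. Zbtb16 with Klf9 had r = 0.867 (rho = 0.794, adjusted permutation p = 0.00663 and 0.0155), and 0.613 without the 2 farthest arrays. Cebpb with Cebpd had r = 0.842 (rho = 0.832, adjusted permutation p = 0.0277 and 0.0155), and 0.662 without the 2 farthest arrays. Fkbp5 with Sgk1 was the loosest, at r = 0.126 (rho = 0.088, adjusted permutation p = 0.695 and 0.774), and its sign turned to -0.129 without the 2 farthest arrays.

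**Figure D4:**
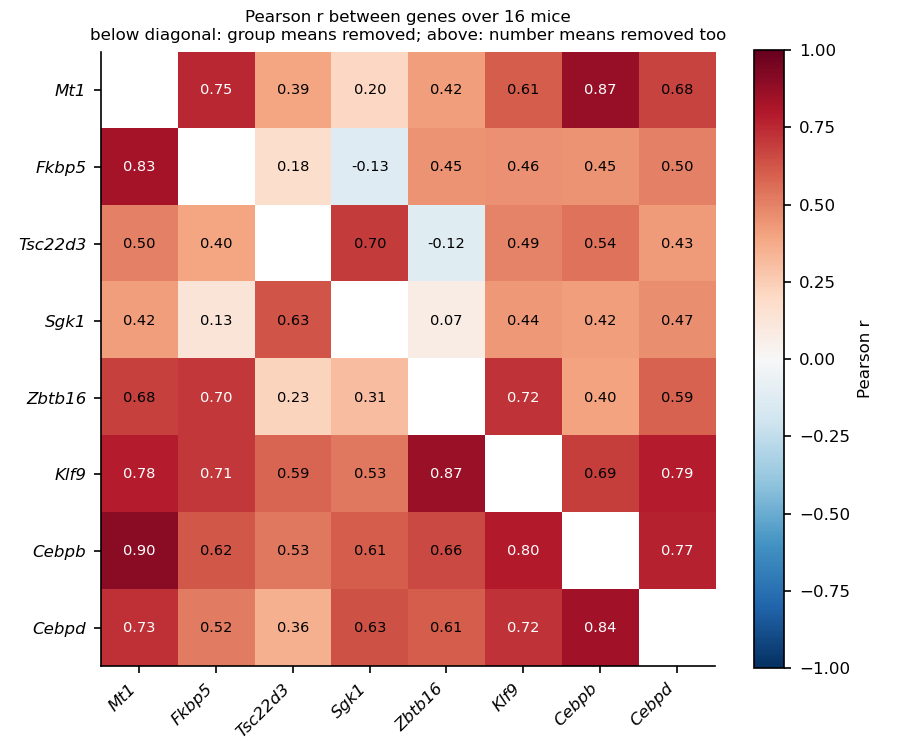
Pearson's r between the 8 genes over 16 mice, below the diagonal with group means removed and above it with the means of the replicate numbers removed as well. All 28 values below the diagonal are positive, and 26 of the 28 above it.

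Genes whose signal followed each of the 8 most closely were ranked by Pearson's r over the 16 arrays after removal of group and number means, among 6837 genes with an SD of at least 0.25. These values are descriptions, since each gene named is the highest of many, and they have no p. For Zbtb16 it was Pdk4, a kinase that limits glucose oxidation (r = 0.953). For Klf9 they were Per1, a clock gene (r = 0.920), and Usp2, a ubiquitin protease (r = 0.919), and for Sgk1 Arrdc3, an arrestin-like protein (r = 0.934). Mt1 was followed by Synj2 (r = 0.940), Fkbp5 by Ctdspl (r = 0.937), Tsc22d3 by Rgs7bp (r = 0.925), Cebpb by Letmd1 (r = 0.925) and Cebpd by Gnl2 (r = 0.957). With group means alone removed the value was 0.068 for Tsc22d3 with Rgs7bp and 0.957 for Klf9 with Per1.

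Other genes of the pathway were read from lists for age over both genotypes. Of 22 further glucocorticoid targets 19 were higher in old muscle, with a median of 0.24. By limma 0 of the 22 were called, against 0.0585% of all genes. An unadjusted p under 0.05 was found for 4 of the 22 and for 3.52% of all genes. The count was 18 without old control replicate 1, where the median was 0.19, and 19 without young control replicate 3, where the median was 0.09. It was 18 with family and the replicate block (median 0.20). Cdkn1a, a cell cycle inhibitor, averaged 9.29 ± 0.41 in old KO, 9.26 ± 0.13 in old control, 8.27 ± 1.16 in young KO and 8.41 ± 0.39 in young control muscle (SD, n = 4 each), a difference of 0.93 (limma adjusted p = 0.737). Pdk4 averaged 10.62 ± 0.22 in old KO, 10.56 ± 0.36 in old control, 10.23 ± 0.17 in young KO and 9.60 ± 0.66 in young control muscle, a difference of 0.67 (limma adjusted p = 0.441, or 0.0757 with the replicate block). Trim63, the muscle ubiquitin ligase Murf1, differed by 0.51 (limma adjusted p = 0.843, or 0.0949 with the block), and Angptl4, an inhibitor of lipoprotein lipase, by 0.39 (SE 0.15).

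Of 8 measured genes for the receptor, its chaperones and cofactors and the enzymes that set active hormone 4 were higher in old muscle, with a median of -0.004. The receptor gene Nr3c1 averaged 8.07 ± 0.34 in old KO, 7.89 ± 0.30 in old control, 7.97 ± 0.24 in young KO and 8.24 ± 0.25 in young control muscle, a difference of -0.13 (limma SE 0.14). Of the cofactors Ncoa1 differed by -0.22 (SE 0.20), and by 0.003 with family and the replicate block. Of 13 genes of metal response, other metallothioneins and metal transport included, 7 were higher, with a median of 0.002; the iron exporter Slc40a1 differed by -0.30 (SE 0.16), and by 0.16 with family and the replicate block. Of 17 relatives of the 8 genes (other family members of the same proteins) 8 were higher, with a median of -0.01, and Klf15, also a glucocorticoid target, differed by 0.47 (SE 0.29). The Klf15 value was 0.25 when young control replicate 3 was left out, 0.29 when old control replicate 1 was, and -0.02 with family and the replicate block. By limma 0 genes of these 3 lists were called, with or without the replicate block. Without it 0 had an unadjusted p under 0.05, against 3.52% of all genes.

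Genes of interleukin 6 signalling and the acute phase were higher in old muscle in 12 of 14, with a median of 0.14, and in 10 of 14 without old control replicate 1, where the median was 0.06. With family and the replicate block 7 of 14 were higher (median 0.03). Without the block 0 were called by limma and 4 had an unadjusted p under 0.05, against 0.0585% and 3.52% of all genes. With the replicate block 2 passed, both as rises, against 0.579% of all genes. Cp, the copper-carrying ferroxidase ceruloplasmin, averaged 6.41 ± 0.14 in old KO, 6.33 ± 0.12 in old control, 5.94 ± 0.14 in young KO and 5.85 ± 0.11 in young control muscle, a difference of 0.47 (limma adjusted p = 0.0777, or 0.00618 with the block). Serpina3n, a protease inhibitor, differed by 0.72 (limma adjusted p = 0.996, or 0.0197 with the block).

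Markers of other cells were read beside these values. All 10 macrophage markers were higher in old muscle, with a median of 0.50; their mean signal per array lay between 5.66 and 6.17 in old KO, 5.55 and 6.30 in old control, 5.19 and 5.87 in young KO and 5.25 and 5.53 in young control muscle. Without the block 0 were called by limma and 6 had an unadjusted p under 0.05, against 0.0585% and 3.52% of all genes. With the block 1 passed, Mpeg1, a pore-forming protein (0.45, limma adjusted p = 0.0463), against 0.579% of all genes. Lyz2, a lysozyme, differed by 0.75 and Adgre1, a surface receptor, by 0.56, and the dimmest macrophage marker was Fcgr1 at a mean of 4.01. With family and the replicate block 4 of the 10 were higher in old muscle (median -0.04), and Lyz2 and Adgre1 differed by -0.31 and -0.03. Of 10 granulocyte and mast cell markers 7 were higher, with a median of 0.05. The neutrophil genes S100a8 and S100a9 were dim, at means of 3.16 and 4.35, and the mast cell proteases Cma1 (0.45) and Mcpt4 (0.55) passed with the block (limma adjusted p = 0.0465 and 0.0467). Of 8 fibroblast markers 2 were higher, with a median of -0.24, and the collagens Col1a1 and Col3a1 fell by 1.04 and 0.81 (limma adjusted p = 0.0290 and 0.00275). Neither passed with family and the replicate block (limma adjusted p = 0.150 and 0.213, at -1.32 and -0.95). For Col1a1 the limma adjusted p lay between 0.0226 and 0.0937 when 1 array was left out. The 3 red blood cell markers measured were higher in old muscle (median 0.32), as were 6 of 7 slow fibre markers (median 0.29). Of the slow fibre markers 0 of 7 were higher without the 4 arrays of number 3. The array means of the muscle fibre markers overlapped in all 4 groups (11.88 to 12.02 in old KO, 11.88 to 12.01 in old control, 11.95 to 12.02 in young KO and 11.79 to 12.05 in young control muscle). The part of these cells in the age differences of the 8 genes was not tested.

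**Figure D5:**
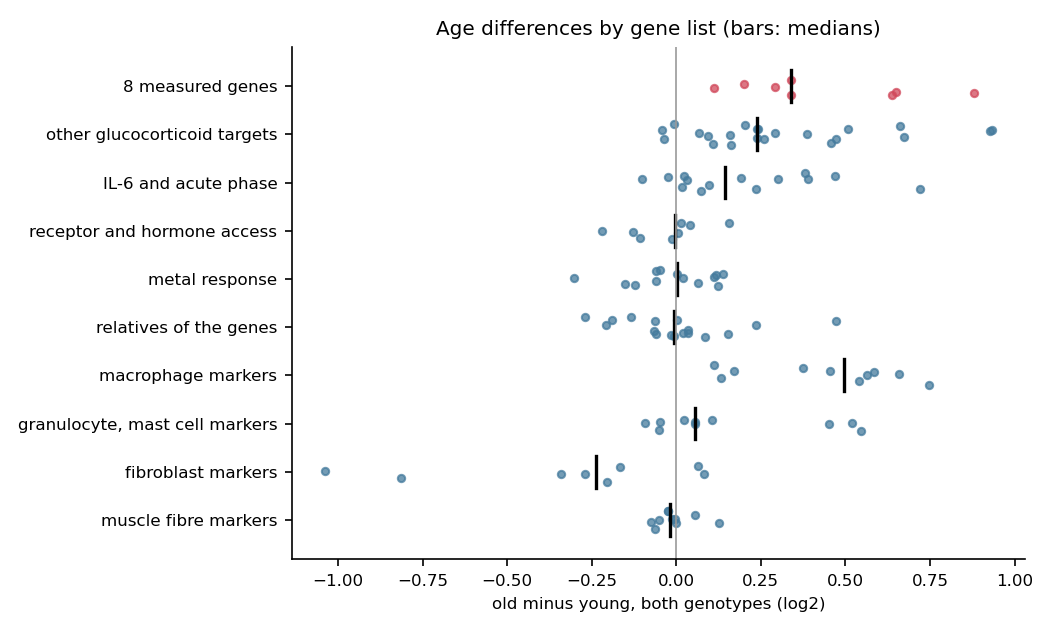
Old minus young difference over both genotypes (log2) of each measured gene, by list, with 1 point per gene and black bars at the medians. The 8 genes (red, median 0.34) and the 10 macrophage markers (median 0.50) lie above 0 throughout, and the receptor list (median -0.004) is spread around 0.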

How the data were processed

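RNA of 16 quadriceps muscles was amplified, biotin labelled and hybridised, 1 mouse per array, per the labels' protocols. The table deposited by the authors holds 1 log2 signal for each probe set and array. RMA and affy are named in the submitters' processing notes, and their versions are not given in the sources used here. RMA gives all arrays the same distribution of probe intensities, so a shift of all genes together would not show. The number of arrays limits the precision, and p-values measure the spread between these mice.

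The table held 45037 probe sets besides 104 controls, which were left out. By the probe annotation 28898 carried 1 symbol, and the brightest of each gene was kept (17097 genes, no filter on level). Comparisons used limma 3.58.1 under R 4.3.3 (4 group means, empirical Bayes with a trend, two-sided, Benjamini-Hochberg over all genes). Pairs were tested by permutation in Python 3.11.15, over 28 pairs rather than the 36 planned, since Mt2 had no probe set with its symbol alone. The fit without a block was run on simulated data for genotype in young mice only. Its noise was independent between arrays and lacked the likeness of arrays with the same number. The fits with the block or family, and the age comparisons, were not tested in this way. Figures were drawn with matplotlib 3.10.9.

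Replicate numbers come from the labels, which do not say what they mark. After removal of group means, arrays with the same number in different groups had r of 0.289 to 0.780 in 24 pairs (median 0.677). Where numbers differed, r ranged from -0.764 to 0.725 in 72 pairs (median -0.455). The number was therefore also fitted as a block.

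The genes and lists were chosen with earlier results of these data known. Genes named from a list were those called in either fit and up to 4 with the smallest unadjusted p in a comparison described; the neutrophil genes, the dimmest macrophage marker and Nr3c1 are named for their role or level. For likeness the 3 closest genes of each of the 8 were ranked. Alternatives were the block, the mean of all probe sets, the brighter 8548 genes, no trend, family with the block, and leaving out each array.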

Additional observations from a re-analysis of the deposited data

Results flagged for a closer look

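In 32 sets of 4 arrays (8 genes in 4 groups) the gap between the outermost array and its neighbour was set against the range of the group, and 2 gaps were wider than Dixon's 95% critical value for 4 samples, where chance alone gives about 1 in 20. Sgk1 in young KO replicate 2 stood at 10.05, with the other 3 arrays between 9.66 and 9.71, a gap of 0.879 of the range. Klf9 in young control replicate 3 stood at 9.31, with the other 3 between 9.96 and 10.04, a gap of 0.897 of the range.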

How the results depend on the processing

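Of 25 differences of the 8 genes, 536 of 541 alternatives kept the direction and the side of the threshold. The other 5 turned the sign, and the cause was not tested. The 541 do not count the call of Cebpd described below, with the replicate block and without old KO replicate 1. With family and the replicate block, old minus young was -0.056 for Mt1, -0.072 for Klf9 and -0.027 for Cebpb, and among other named genes 0.003 for Ncoa1, -0.016 for Klf15, 0.164 for Slc40a1, -0.308 for Lyz2 and -0.034 for Adgre1. Leaving out 1 array in turn, KO minus control in young mice lay between -0.649 and 0.016 for Fkbp5 (the upper end without young control replicate 4), and the interaction of Zbtb16 between -0.449 and 0.012 (the upper end without young control replicate 3). The r of Fkbp5 with Sgk1 was -0.131 with the replicate block and -0.129 without the 2 arrays farthest from the median.

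No gene of the 8 was called under any alternative, except Cebpd (1 call, age over both genotypes) in the fit with the replicate block and without old KO replicate 1, a setting chosen after seeing the data, as were the counts over fewer arrays. With the replicate block 0 of 28 pairs passed, against 9 without it. Over all genes, age over both genotypes gave 10 calls, 99 with the replicate block, 22 among the brighter 8548 genes, 1 with family and the replicate block, and 5 to 13 without 1 array (5 without young KO replicate 1). Age in control mice gave 0 calls, 8 with the replicate block, 1 with family and the replicate block and 0 to 1 without 1 array. Age in KO mice gave 3 calls, 1 with family and the replicate block and 0 to 4 without 1 array (0 without young KO replicates 2, 3 or 4 and 1 without replicate 1). Genotype in old mice gave 0 calls and 0 to 1 without 1 array. The replicate block changed no other call among the 8 genes. With 4 mice per group the intervals of Mt1, Fkbp5 and Cebpd within 1 age or genotype were wide, and a p that misses the threshold does not show that their values did not differ.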
